A study of Homo sapiens with 8 samples.

Results

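The sgRNAs described here bind distal enhancers of *GFI1B*, *MYB* and *NFE2*, 3 transcription factors of blood cells, in K562 cells, an established human erythroleukaemia line with features of erythroid progenitors. They are the sgRNAs that the deposited table of fold changes classes as enhancer sgRNAs, 12 of 91 targeting sgRNAs: 6 for *GFI1B*, 4 for *MYB* and 2 for *NFE2*. Each was introduced into both cell lines of the study, which makes 24 of its 181 perturbations, a perturbation being 1 sgRNA in 1 line. The CRISPRi line expresses a repressor built on dCas9, a Cas9 that binds DNA without cutting it, and the CRISPRa line expresses dCas9-VPR, an activator. Both are K562 lines transduced with the same pooled sgRNA library at a low multiplicity of infection, so that most cells take up a single sgRNA, and single cells were captured with their sgRNA tags after 8 days on 2 10X lanes. There was 1 culture of each line. The reference in each line is cells with non-targeting control (NTC) sgRNAs, and sgRNAs for *TET2*, a DNA demethylation gene included for its small expected *trans* effects, give a background.

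An enhancer is a stretch of DNA away from the promoter that transcription factors occupy and that raises transcription of a gene on the same chromosome, often in certain cell types only. A repressor tethered to an active enhancer can lower that gene, and an activator tethered there can raise it; the gene meant to change is called the *cis* gene, and genes that change with it elsewhere in the genome are its *trans* genes. GFI1B is a zinc finger repressor of the erythroid and megakaryocytic lineages, MYB keeps haematopoietic progenitors dividing and immature, and NFE2 is the haematopoietic subunit of NF-E2, which activates genes of platelet formation and globin synthesis.

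The sgRNAs are shown because their positions define the elements to which every value below refers. They are written 5′ to 3′ with the PAM, the motif that Cas9 needs beside its target, in capitals. All 12 protospacers with their PAM matched hg38 at the deposited coordinates.
GFI1B_15: ttgcatggcggctggcccaaGGG
GFI1B_16: tgtcggcctgggtgcagcgtGGG
GFI1B_17: ataagtttatcgcacggtgcCGG
GFI1B_18: caccgtgcgataaacttatcAGG
GFI1B_19: tggctcgtgggatgtctacgGGG
GFI1B_20: gctggaaaccgtcacggttaAGG
MYB_16: tttggacaggttgcgtggaaGGG
MYB_17: agttctggatagcacgatcaGGG
MYB_18: ttaaaaacgcctatagcaatGGG
MYB_19: gataatgtctccgcgatggaTGG
NFE2_16: cgggcggttaccccgatgctTGG
NFE2_17: caagcatcggggtaaccgccCGG

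Joining sgRNAs of a *cis* gene that lie within 1000 bp of each other gave 8 elements, named here by their distance from the TSS of the *cis* gene along its strand. *GFI1B* had 3, each with 2 sgRNAs. GFI1B +6.3 kb lies in an intron of *GFI1B* itself, with GFI1B_15 at chr9:132985047-132985066 and GFI1B_16 at chr9:132985113-132985132, both on the plus strand and 66 bp apart. GFI1B +20.5 kb is intergenic, with GFI1B_17 at chr9:132999344-132999363 on the plus strand and GFI1B_18 at chr9:132999343-132999362 on the minus strand, so that the pair shares 19 bases. GFI1B +25.3 kb is also intergenic, with GFI1B_19 at chr9:133004051-133004070 and GFI1B_20 at chr9:133004178-133004197, both on the plus strand and 127 bp apart.

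The 4 *MYB* sgRNAs each stand alone. MYB −88.3 kb (MYB_16, chr6:135093104-135093123, minus strand) lies in an intron of *HBS1L*, and MYB −33.9 kb (MYB_17, chr6:135147484-135147503, minus strand) is intergenic. MYB +125.7 kb (MYB_18, chr6:135307062-135307081, plus strand) lies within *AHI1*, outside its exons but in an exon of a noncoding gene that has only an Ensembl identifier. MYB +141.9 kb (MYB_19, chr6:135323256-135323275, plus strand) lies in the coding part of an *AHI1* exon in the canonical transcript. NFE2 −3.7 kb, the only *NFE2* element, lies in an intron of *COPZ1*, with NFE2_16 at chr12:54304619-54304638 on the plus strand and NFE2_17 at chr12:54304621-54304640 on the minus strand, sharing 18 bases. The nearest coding start to NFE2_16 is that of *COPZ1*, 3427 bp away, with that of *NFE2* at 3614 bp. *HBS1L*, *AHI1* and *COPZ1* were not among the 92 genes measured, so effects on these hosts could not be read.

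Short words bound by blood transcription factors were searched on both strands of 300 bases centred on each element. The GATA words AGATAA or TGATAA occurred in 7 of the 8 windows, all except MYB −88.3 kb, against 16.3% of 34943 RefSeq promoters of the same length (hg38) and 26.3% of 3000 windows tiled within 150 kb of the 3 TSSs. The stretch at GFI1B +20.5 kb (chr9:132999323-132999383, plus strand) is shown because its GATA word, in capitals, overlaps both protospacers.
GFI1B +20.5 kb: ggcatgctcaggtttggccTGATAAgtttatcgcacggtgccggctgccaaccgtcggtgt

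The windows of the elements with the largest *cis* changes outside exons follow, on the plus strand of hg38 with GATA words in capitals: GFI1B +25.3 kb at chr9:133003975-133004274 and NFE2 −3.7 kb at chr12:54304480-54304779.
GFI1B +25.3 kb: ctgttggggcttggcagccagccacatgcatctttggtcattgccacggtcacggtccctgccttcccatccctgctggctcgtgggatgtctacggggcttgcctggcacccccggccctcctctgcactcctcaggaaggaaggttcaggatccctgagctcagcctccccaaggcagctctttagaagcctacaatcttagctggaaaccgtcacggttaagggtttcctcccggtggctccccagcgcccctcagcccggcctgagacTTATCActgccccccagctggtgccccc
NFE2 −3.7 kb: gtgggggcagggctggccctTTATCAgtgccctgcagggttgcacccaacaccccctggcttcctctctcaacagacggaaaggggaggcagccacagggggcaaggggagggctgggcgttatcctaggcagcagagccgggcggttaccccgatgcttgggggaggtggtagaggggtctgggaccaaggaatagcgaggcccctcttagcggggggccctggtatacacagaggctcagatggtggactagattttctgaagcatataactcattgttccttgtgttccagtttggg

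No window held the NF-E2/AP-1 word TGAGTCA, which 4.96% of the promoters and 5.10% of the tiles held. CACCC, a word of KLF factors that can overlap GATA words, occurred in 5 of the 8 windows (59.8% of promoters, 51.0% of tiles), and the MYB words AACTG or AACGG in 4 of 8 (52.4% and 50.2%). The E-box words CACCTG or CAGATG occurred in 2 of 8 (32.1% and 43.7%), and AATCAC, the core word of GFI1B, in 1, MYB −88.3 kb (10.2% and 14.8%). A word of this length is a match of letters and not a binding site.

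The measurement is the authors' log2(FC): mean normalized expression in the cells with an sgRNA divided by that in its line's NTC cells, with a constant added before the log that understates the change of low genes. An enhancer sgRNA had 32 to 107 cells in CRISPRi (median 69.5, 867 in all) and 30 to 98 in CRISPRa (median 57, 698 in all), and all sgRNAs of a line share its NTC cells, 536 in CRISPRi and 323 in CRISPRa. Cells of 1 culture are not replicates, so no test between conditions was possible and every value is given without one. A pooled log2(FC) also cannot separate a shift in every cell from a strong change in some. The spread given is that between sgRNAs of an element (SD, n = 2), and each value is set beside the lowest and highest value of the same gene over the 20 *TET2* sgRNAs of the same line, whose cells numbered 29 to 142 in CRISPRi and 18 to 104 in CRISPRa. The erythroid identity of the cells could not be checked from levels, since fold changes hold none. A *trans* gene is called past the fold where every sgRNA of an element had an absolute log2(FC) of at least 0.25 with 1 sign. A single *TET2* sgRNA took 1.21% of the 91 *trans* genes past the fold in CRISPRi and 2.91% in CRISPRa, and a pair of them took 0.0636% and 0.26%. The 91 genes were largely picked by the study from earlier responses to inhibition of *GFI1B* and *NFE2* enhancers in K562, so these shares do not extend to other genes.

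In CRISPRi the 3 *GFI1B* elements differed in how far *GFI1B* itself was lowered. At GFI1B +6.3 kb the log2(FC) of *GFI1B* was 0.05 with GFI1B_15 and −0.16 with GFI1B_16, a mean of −0.05 ± 0.14 (SD, n = 2). At GFI1B +20.5 kb it was −0.23 with GFI1B_17 and −0.20 with GFI1B_18, a mean of −0.22 ± 0.016. At GFI1B +25.3 kb it was −0.38 with GFI1B_19 and −0.51 with GFI1B_20, a mean of −0.45 ± 0.088, which is 73.4% of the NTC level. The *TET2* sgRNAs ranged from −0.11 to 0.06 for this gene, so 5 of the 6 sgRNAs lay below that range and GFI1B_15 lay inside it. The elements' values do not overlap between +20.5 kb and +25.3 kb, while sgRNAs at the TSS had a mean of −1.24.

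The *trans* genes in CRISPRi followed the same order of elements. Past the fold were 2 genes at GFI1B +6.3 kb (2.2% of 91), 6 at GFI1B +20.5 kb (6.59%) and 14 at GFI1B +25.3 kb (15.4%), with 2, 3, 8, 11, 16 and 19 genes for the single sgRNAs GFI1B_15 to GFI1B_20 in order. A *TET2* sgRNA had 0 to 4 such genes (median 1).

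*TUBB1*, the β-tubulin of platelets and megakaryocytes, had values of −0.33 and −0.49 at GFI1B +6.3 kb, −0.16 and −0.45 at GFI1B +20.5 kb, and −0.60 and −0.74 at GFI1B +25.3 kb. The *TET2* sgRNAs spanned −0.29 to 0.28, so 5 of the 6 enhancer sgRNAs were below all of them and GFI1B_17 was not. *DAPK1*, a kinase of cell death signalling, was 0.20 and 0.46, then 0.44 and 0.49, then 0.59 and 0.69 at the 3 elements, and only GFI1B_15 fell within the *TET2* range of −0.15 to 0.26.

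*SPI1*, which encodes the myeloid factor PU.1, was 0.10 and 0.14 at GFI1B +6.3 kb, 0.54 and 0.38 at GFI1B +20.5 kb, and 0.59 and 0.64 at GFI1B +25.3 kb, against at most 0.17 over the *TET2* sgRNAs. The intronic element therefore lay inside the background for this gene and both intergenic elements above it. *BHLHE40*, a basic helix-loop-helix repressor, had means of 0.14, 0.28 and 0.52 at the 3 elements, and *JUN*, a subunit of AP-1, was 0.31 and 0.26 at GFI1B +20.5 kb and 0.29 and 0.43 at GFI1B +25.3 kb, above the *TET2* maximum of 0.23 in each case.

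At GFI1B +25.3 kb the genes past the fold and lower than in NTC cells included *RHD*, an Rh blood group protein, at −0.33 and −0.28. *KLK1*, a kallikrein, was −0.43 and −0.44, *PLCD1*, a phospholipase C, was −0.41 and −0.59, and *RELN*, a secreted glycoprotein, was −0.39 and −0.32. All 8 of these values lay below the *TET2* ranges, whose lowest values were −0.16, −0.22, −0.22 and −0.14. *CA1*, the red cell carbonic anhydrase I, was past the fold at all 3 elements, with means of −0.34, −0.39 and −0.56, but the *TET2* sgRNAs reached −0.57 for it, with a median of −0.14, so only GFI1B_19, at −0.63, lay below them. With each gene centred on the *TET2* sgRNAs of the line, the calls of *CA1* at GFI1B +6.3 kb, of *CA1*, *BHLHE40* and *FOXP1*, a forkhead factor, at GFI1B +20.5 kb and of *RHD* at GFI1B +25.3 kb ended.

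Smaller differences from NTC cells were shared by the *GFI1B* enhancer sgRNAs in CRISPRi. *MYB* was 0.10 and 0.19, 0.15 and 0.14, and 0.24 and 0.24 at the 3 elements, with 4 of the 6 above the *TET2* maximum of 0.14. *PKM*, a glycolytic pyruvate kinase named here after its values were seen, was 0.09 and 0.16, 0.22 and 0.19, and 0.27 and 0.30, all 6 above the *TET2* maximum of 0.05. These 6 values share 1 set of NTC cells and are not independent of each other.

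In CRISPRa 1 of the 6 *GFI1B* enhancer sgRNAs stood apart. *GFI1B* was 0.12 and 0.14 at GFI1B +6.3 kb (mean 0.13 ± 0.013), 0.20 and 0.13 at GFI1B +20.5 kb (0.17 ± 0.050), and 0.16 with GFI1B_19 and 0.51 with GFI1B_20 at GFI1B +25.3 kb (0.33 ± 0.25). Only GFI1B_17 and GFI1B_20 exceeded the *TET2* range of −0.15 to 0.18. GFI1B_20, in 59 cells, was at 142% of the NTC level, and its neighbour 127 bp away, in 34 cells, at 112%.

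The sgRNAs GFI1B_19 and GFI1B_20 differed by 0.25 or more for 31 of the 91 *trans* genes in CRISPRa, with an SD of the difference of 0.395, where the 190 pairs of *TET2* sgRNAs had 0.0670 to 0.200. In CRISPRi the same pair differed by that much for 1 gene, with an SD of 0.0763. *MYB* was 0.01 with GFI1B_19 and −1.01 with GFI1B_20 in CRISPRa, the lowest value of *MYB* among the 24 perturbations. *TUBB1* was 0.25 and 1.25, *NFIA*, a factor of erythroid fate, 0.00 and −0.98, *CELF2*, an RNA-binding protein, −0.03 and −0.95, and *CA1* −0.26 and 0.79.

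GFI1B_20 alone had 34 *trans* genes past the fold in CRISPRa, against 7, 17, 4, 5 and 6 for GFI1B_15 to GFI1B_19 and 0 to 7 for the *TET2* sgRNAs. Requiring both sgRNAs left 5 genes at GFI1B +6.3 kb (5.49%), none at GFI1B +20.5 kb (0% of 91, and 1 gene by the mean over both sgRNAs) and 3 at GFI1B +25.3 kb (3.3%). The 3 included *RELN* (0.39 and 0.34) and *TUBB1*, neither of which lay above the *TET2* range with both sgRNAs. *BHLHE40*, at −0.248 and −0.931 at GFI1B +25.3 kb, narrowly missed the fold with GFI1B_19. It lay below the *TET2* minimum of −0.106 with both sgRNAs. At GFI1B +6.3 kb *TLNRD1*, a talin rod protein, was −0.49 and −0.39, *DAPK1* −0.28 and −0.59, *JUN* −0.30 and −0.33, *TUBB1* 0.30 and 0.42, and *ALAS2*, the first enzyme of erythroid haem synthesis, 0.32 and 0.29. The first 3 lay below all *TET2* sgRNAs with both sgRNAs, and the last 2 did not lie above them with both. Centring on the *TET2* sgRNAs ended the calls of *JUN* and *TUBB1* at GFI1B +6.3 kb and of *TUBB1* at GFI1B +25.3 kb.

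Of the 4 *MYB* elements, 1 lowered *MYB* in CRISPRi. The log2(FC) of *MYB* was −0.02 at MYB −88.3 kb, −0.02 at MYB −33.9 kb and −0.03 at MYB +125.7 kb, of which only the last lay below the *TET2* range of −0.03 to 0.14, its value and their minimum both rounding to −0.03. At MYB +141.9 kb it was −0.48, which is 71.7% of the NTC level, in the 32 cells of MYB_19. That sgRNA had 97 cells in CRISPRa; the other 3 had 107, 76 and 61 cells in CRISPRi and 77, 98 and 56 in CRISPRa. MYB_19 had a deposited specificity score of 99.1, the highest of the 12 sgRNAs, which ranged from 76.9.

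No *trans* gene was past the fold at MYB −88.3 kb, MYB −33.9 kb or MYB +125.7 kb in CRISPRi (0% each), and 19 were at MYB +141.9 kb (20.9%), 11 higher and 8 lower than in NTC cells. Among the higher were *TUBB1* at 0.66, *ALAS2* at 0.64, *SPI1* at 0.50, *BTG2*, an inhibitor of proliferation, at 0.46 and *HBZ*, for embryonic ζ-globin, at 0.28. Each lay above all *TET2* sgRNAs, whose highest values were 0.28, 0.21, 0.17, 0.13 and 0.10. Among the lower were the long noncoding RNA *UCA1* at −0.61, *GATA2*, a factor of haematopoietic progenitors, at −0.42 and *NFIA* at −0.35, where the *TET2* sgRNAs went no lower than −0.21, −0.07 and −0.10. The other 3 *MYB* sgRNAs had *ALAS2* at 0.11, 0.15 and 0.14 and *TUBB1* at 0.12, 0.10 and 0.23, inside the background.

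In CRISPRa all 4 *MYB* elements gave nearly the same *MYB* level, 0.13, 0.16, 0.13 and 0.16 from MYB −88.3 kb to MYB +141.9 kb, and the *TET2* sgRNAs ranged from −0.05 to 0.16, so only MYB_19 exceeded them, and its value and their highest both round to 0.16. Among the 20 promoter sgRNAs of *MYB* in this line (those at the TSS, tiling around it or carrying mismatches), 18 or 19 were lower than each enhancer sgRNA.

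Genes past the fold in CRISPRa were mostly lower than in NTC cells: 2 of 2 at MYB −88.3 kb (2.2%), 3 of 3 at MYB −33.9 kb (3.3%), 6 of 7 at MYB +125.7 kb (7.69%) and 5 of 5 at MYB +141.9 kb (5.49%). Single *TET2* sgRNAs had 0 to 7 genes past the fold in this line (median 2, a share of 2.91%). The counts of all 4 elements lie inside that range. *ALAS2* was −0.56, −0.43, −0.55 and −0.57 at the 4 elements, all below the *TET2* minimum of −0.20. *RHD* was −0.06, −0.25, −0.33 and −0.21, all below −0.05, and *RELN* was −0.36, −0.09, −0.34 and −0.46, with all but MYB −33.9 kb below the minimum of −0.27. The 4 sgRNAs bind within a span of 230.2 kb and share the culture and its NTC cells, as do the *TET2* sgRNAs. *KLK1*, at 0.37 with MYB_18, was the only gene past the fold and higher. Centring on the *TET2* sgRNAs ended the call of *HBZ* at MYB +125.7 kb.

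NFE2 −3.7 kb had the strongest *cis* change of the 8 elements in CRISPRi. *NFE2* was −0.74 with NFE2_16 and −0.81 with NFE2_17, a mean of −0.78 ± 0.050 (SD, n = 2), or 58.3% of the NTC level, where the *TET2* sgRNAs spanned −0.04 to 0.04. It lay below all 20 promoter sgRNAs of *NFE2* in that line, of which the lowest, NFE2_14 at the TSS, was −0.36. In CRISPRa the values were 0.23 and 0.10, a mean of 0.17 ± 0.097, both above the *TET2* maximum of 0.09, and 14 of 19 promoter sgRNAs were lower than that mean.

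The *trans* genes that passed the fold with *NFE2* at NFE2 −3.7 kb were few: 5 in CRISPRi (5.49%) and 2 in CRISPRa (2.2%). In CRISPRi *TUBB1* was −0.39 and −0.45, *SRGN*, for the granule proteoglycan serglycin, −0.31 and −0.35, and *CAV2*, a caveolin, −0.31 and −0.25, all below the *TET2* minima of −0.29, −0.12 and −0.11. *ISG15*, an interferon-induced ubiquitin-like protein, was 0.26 and 0.27 against a maximum of 0.15, and *HMGN5*, a nucleosome-binding protein, 0.30 and 0.26, of which only the first was above the maximum of 0.26. Centring on the *TET2* sgRNAs ended the call of *ISG15*. In CRISPRa *TUBB1* was 0.43 and 0.36, above the *TET2* maximum of 0.33, and *S100A1*, a calcium-binding protein, −0.36 and −0.35, below the minimum of −0.15. *SRGN*, at 0.040 and −0.0031, and *CAV2*, at 0.042 and 0.046, lay inside the *TET2* range in CRISPRa.

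The share of members past the fold differed between the 7 gene lists described here. At MYB +141.9 kb in CRISPRi 2 of 3 stimulus-induced genes passed and 0 of 2 chromatin genes, beside 20.9% of all 91 *trans* genes. The lists were chosen with earlier results of these data known, so a larger share than that of all genes is not a finding about a list. Of 6 haem and erythroid genes, *CA1* was lower at the 3 *GFI1B* elements in CRISPRi, and *ALAS2* and *HBZ* were higher at MYB +141.9 kb; in CRISPRa *ALAS2* was higher at GFI1B +6.3 kb and lower at all 4 *MYB* elements, with *HBZ* lower at MYB +125.7 kb (−0.27), while *SLC25A37*, *CA8* and *FAH* passed at none. *FAH* was −0.53 with GFI1B_20 in CRISPRa but −0.02 with GFI1B_19. The median of the 6 genes at MYB +141.9 kb in CRISPRa was −0.13, and that of all *trans* genes 0.00. Among genes of the red cell membrane, *RHD* was lower at GFI1B +25.3 kb and higher at MYB +141.9 kb in CRISPRi, and lower at MYB −33.9 kb and MYB +125.7 kb in CRISPRa, and *ERMAP*, a red cell adhesion protein, was lower at MYB +141.9 kb in CRISPRa (−0.33). *SPTB*, for β-spectrin, passed at none, though its highest value with a single *GFI1B* enhancer sgRNA in CRISPRa was 0.60.

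Of 3 platelet genes, *TUBB1* passed in CRISPRi at GFI1B +6.3 kb, GFI1B +25.3 kb, MYB +141.9 kb and NFE2 −3.7 kb, and in CRISPRa at GFI1B +6.3 kb, GFI1B +25.3 kb and NFE2 −3.7 kb. *SRGN* passed at NFE2 −3.7 kb in CRISPRi alone, and *ANKRD26* at no element. In CRISPRa *ANKRD26* was −0.77 with GFI1B_20 but −0.17 with GFI1B_19. Of 7 lineage transcription factors, *SPI1* and *FOXP1* were higher at GFI1B +20.5 kb and GFI1B +25.3 kb in CRISPRi, *SPI1* was higher and *GATA2* and *NFIA* lower at MYB +141.9 kb, and *FOXP1* was lower at MYB +141.9 kb in CRISPRa (−0.36); *RUNX1*, *PITX1* and *NR2F2* passed at none. Of 3 stimulus-induced genes, *JUN* and *BHLHE40* were higher at the intergenic *GFI1B* elements in CRISPRi, *JUN* and *BTG2* were higher at MYB +141.9 kb, and *JUN* was lower at GFI1B +6.3 kb in CRISPRa. Of 5 signalling genes, *DAPK1* was higher at the intergenic *GFI1B* elements in CRISPRi and lower at GFI1B +6.3 kb in CRISPRa. *KLK1* and *PLCD1* were lower at GFI1B +25.3 kb in CRISPRi, at MYB +141.9 kb in CRISPRi they were 0.46 and −0.43, and *KLK1* was higher at MYB +125.7 kb in CRISPRa, while *DAPP1* and *PPP1R14A* passed at none. The 2 chromatin genes, *HMGA1* and *CTCFL*, passed at no element.

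Opposite signs in the 2 lines marked the genes that passed in both. Of the genes described here, *TUBB1* did so at GFI1B +6.3 kb, GFI1B +25.3 kb and NFE2 −3.7 kb, *RELN* at GFI1B +25.3 kb, and *ALAS2* and *RELN* at MYB +141.9 kb, and no gene passed in both lines with 1 sign. Over the 91 *trans* genes, Pearson's r between the CRISPRi and CRISPRa values was −0.71, −0.36 and −0.84 for the *GFI1B* elements from +6.3 kb to +25.3 kb, −0.21, −0.22, −0.17 and −0.54 for the *MYB* elements from −88.3 kb to +141.9 kb, and −0.42 for NFE2 −3.7 kb. The lines share sgRNAs but neither cells nor NTC cells, and genes are not independent replicates, so r is a description. At MYB +125.7 kb and the elements upstream of *MYB*, *MYB* moved by 0.03 or less in CRISPRi.

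Agreement between sgRNAs of an element was set against *TET2* pairs. The SD of the difference over 91 genes was 0.0789 at GFI1B +6.3 kb, 0.114 at GFI1B +20.5 kb and 0.0804 at NFE2 −3.7 kb in CRISPRi, inside the 0.0556 to 0.153 of 190 *TET2* pairs. In CRISPRa it was 0.123, 0.132 and 0.118, so that GFI1B +25.3 kb was the only pair outside the *TET2* range in either line.

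Enhancer sgRNAs were also set against promoter sgRNAs of the same gene and line with at least 30 cells and a *cis* log2(FC) within 0.1, a difference in which the NTC cells cancel. For GFI1B_20 in CRISPRa the only match was GFI1B_5, with *GFI1B* at 0.49 in 92 cells. *MYB* was −1.01 with GFI1B_20 and −0.95 with GFI1B_5, *NFIA* −0.98 and −0.93, and *CELF2* −0.95 and −1.12, whereas *TUBB1* was 1.25 and 0.70. The sgRNA that stood apart from its neighbour was therefore near a promoter sgRNA with a like *GFI1B* level for the first 3 genes.

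For GFI1B_19 and GFI1B_20 in CRISPRi the only match was GFI1B_22, with *GFI1B* at −0.42. *SPI1* was 0.59 and 0.64 with the enhancer sgRNAs and 0.60 with GFI1B_22, and *DAPK1* was 0.59, 0.69 and 0.60. *KLK1* was −0.43, −0.44 and −0.09. GFI1B_15, which did not lower *GFI1B*, had *TUBB1* at −0.33 and *CA1* at −0.33, where its 2 matches had *TUBB1* between −0.05 and −0.03 and *CA1* between −0.00 and 0.09.

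For MYB_19 in CRISPRi the 2 matches, with *MYB* between −0.54 and −0.49, had *TUBB1* at 0.64 to 0.67 and *ALAS2* at 0.53 to 0.58, near the 0.66 and 0.64 of MYB_19. They had *SPI1* at −0.04 to 0.06, *CA1* at 0.30 to 0.31 and *ANKRD26* at −0.22 to −0.19, where MYB_19 had 0.50, 0.00 and 0.08. In CRISPRa the *MYB* enhancer sgRNAs had 12 or 14 matches each, whose *ALAS2* values ran from −0.27 to 0.14 with medians of −0.10 or −0.09, all above the −0.43 to −0.57 of the enhancer sgRNAs.

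For *NFE2* no promoter sgRNA reached the CRISPRi level of the element, so none was matched. In CRISPRa NFE2_16 had 6 matches, whose *TUBB1* ran from 0.21 to 0.39 against its 0.43. *DAPP1*, an adaptor of B cell signalling, was 0.61 with NFE2_16 against at most 0.27 with these matches. With the overlapping NFE2_17 it was 0.11, inside the *TET2* range, so this difference rests on 1 sgRNA. NFE2_17 had 15 matches, with *TUBB1* at −0.01 to 0.39 against its 0.36.

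The control genes moved little. *GAPDH* was between −0.06 and 0.01 in the 24 perturbations, and *LHX3*, which K562 barely expresses, between −0.01 and 0.05. Some of these values left the narrow *TET2* ranges. *GAPDH* was −0.058 with GFI1B_20 in CRISPRa (*TET2* minimum −0.030) and −0.033 with MYB_19 in CRISPRi (minimum −0.012). *LHX3* was 0.052 with MYB_18 in CRISPRa (maximum −0.012). *NFE2* stayed between −0.05 and 0.05 with every *GFI1B* and *MYB* enhancer sgRNA, and *GFI1B* was −0.11 and −0.07 with the *NFE2* sgRNAs in CRISPRi and 0.15 and 0.13 in CRISPRa.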

How the data were processed

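The analysis started from the log2 fold changes the authors deposited for 92 genes, each an sgRNA's cells against the NTC cells of the same line. The authors' processing notes name Cell Ranger, alevin, Seurat and GRCh38; cells with more than 1 sgRNA were removed and both lanes pooled before the fold changes were made. The methods write a natural log, the column log2, and values were taken as log2. The deposited table also holds p-values, FDRs and calls over cells, which were not used. The sgRNA scores are the authors' deposited on-target and specificity scores. Sequencing reads and UMI counts were not used here, so the depth is given in cells.

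The members, lists and rules were chosen with earlier results of these data known. A *trans* gene counted where every sgRNA of an element passed an absolute log2(FC) of 0.25. Named genes are the *cis* and control genes, the 5 *trans* genes of largest mean change for each element and line with 1 sign in every sgRNA, and the members of 7 lists (haem and erythroid, red cell membrane, platelet, lineage transcription factors, stimulus-induced, signalling, chromatin); others named past the fold, *PKM* and genes from the matches were picked after their values were seen. A gene that the rule selects is left out of the account of single genes and remains in the counts. Alternatives were a fold of 0.35, the mean over sgRNAs, weighting by cells, a minimum of 30 cells, centring on *TET2* sgRNAs, leaving out each sgRNA, and joining elements within 300 or 5000 bp. Coordinates are hg38 with GENCODE 44. Counting was run on simulated data with planted effects far past the fold and little noise. That run checks the code and says nothing of calls near the fold. Python 3.11.15, numpy 2.4.6 and pandas 2.3.3 were used.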

Additional observations from a re-analysis of the deposited data

Results flagged for a closer look

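Among the 4 *MYB* enhancer sgRNAs in CRISPRi, MYB_19 lay far from the others, with *MYB* at −0.48 and 19 *trans* genes past the fold, where the other 3 had −0.02 to −0.03 and none. Among the 6 *GFI1B* enhancer sgRNAs in CRISPRa, GFI1B_20 lay far from the others, with *GFI1B* at 0.51. The measure sets the gap to the nearest value against the range of the group, and 8 groups were examined. Its nominal chance rate of about 1 in 20 does not hold here, since the sgRNAs bind different elements and the counts hold ties. The *cis* value and the count of an sgRNA also come from the same cells, so the flags are a description.

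Some genes were above NTC cells with every enhancer sgRNA of one factor and below with every one of the other, a difference that was not tested; the 6 *GFI1B* and 4 *MYB* sgRNAs share the NTC cells of a line. In CRISPRi the *GFI1B* sgRNAs were lower than the *MYB* sgRNAs for *CA1*, *HBZ*, *KLK1* and *TUBB1*, with differences of medians of −0.45, −0.21, −0.22 and −0.65, and higher for *PPP1R14A*, a phosphatase inhibitor, with 0.24. In CRISPRa they were lower for *FAH*, an enzyme of tyrosine breakdown, and *PPP1R14A*, with differences of −0.088 and −0.20. The genes named here are members of the gene lists, and the separation was not confined to them. *RELN* separated in CRISPRa, with medians of 0.26 over the *GFI1B* and −0.35 over the *MYB* sgRNAs. Even the control *GAPDH* did in CRISPRi, with medians of 0.0092 and −0.0051. Such genes were not counted over all genes.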

How the results depend on the processing

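Weighting by cells or requiring 30 cells, which every enhancer sgRNA had, kept all 16 *cis* values within 1 SD. The SD was that over the sgRNAs of the element, or over the *TET2* sgRNAs for a single sgRNA. Neither setting could do otherwise, since a weighted mean of a pair stays within 1 SD of the plain mean and a single sgRNA keeps its value. Neither therefore says anything of stability. Leaving out each sgRNA was possible for the 8 values that rest on a pair and not for the 8 *MYB* values. Leaving out 1 of a pair cannot move a mean by more than 1 SD, so this says nothing of stability, and at GFI1B +6.3 kb in CRISPRi the sign turned with the sgRNA left out (−0.16 to 0.05). Centring on the *TET2* sgRNAs moved 2, GFI1B +20.5 kb in CRISPRi to −0.20 and GFI1B +6.3 kb in CRISPRa to 0.10. Counts of *trans* genes depended more on the rule. A fold of 0.35 left 0, 2 and 8 genes at the 3 *GFI1B* elements from +6.3 kb and 1 at NFE2 −3.7 kb in CRISPRi, and 1 at GFI1B +6.3 kb, 0 at GFI1B +25.3 kb and 4 at MYB +125.7 kb in CRISPRa. By the mean over sgRNAs CRISPRa gave 9, 1 and 20 genes at the *GFI1B* elements from +6.3 kb and 5 at NFE2 −3.7 kb. Centring gave 1 and 3 genes at GFI1B +6.3 kb and GFI1B +20.5 kb and 1 at each of MYB −88.3 kb, MYB −33.9 kb and MYB +125.7 kb in CRISPRi. In CRISPRa it gave 8 at MYB +141.9 kb. The gene gained at MYB −88.3 kb and MYB −33.9 kb in CRISPRi was *TET2*, the target of the sgRNAs used to centre. *TET2* was also gained at GFI1B +25.3 kb, MYB +141.9 kb and NFE2 −3.7 kb in CRISPRi. In CRISPRa *TET2* was gained at GFI1B +6.3 kb, MYB −33.9 kb and MYB +141.9 kb. The cause of the changes in other genes was not tested. Leaving out 1 sgRNA raised the count to 8 to 11 at GFI1B +20.5 kb in CRISPRi, and in CRISPRa to 7 to 17 at GFI1B +6.3 kb, 4 to 5 at GFI1B +20.5 kb, 6 to 34 at GFI1B +25.3 kb (6 without GFI1B_20) and 4 to 5 at NFE2 −3.7 kb, since fewer sgRNAs have to pass. Joining within 300 bp gave 8 elements and within 5000 bp gave 7.

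Every perturbation was measured once, in 1 culture per line and in as few as 30 cells. *MYB* elements rest on 1 sgRNA each, and the pairs at GFI1B +20.5 kb and NFE2 −3.7 kb overlap, so their SD says little about the element. No paired analysis was possible because the values come from no test.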
